A study of Mus musculus with 12 samples.

Results

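The 34 genes described here encode the machinery that brings proteins into mitochondria, folds or degrades them there and shapes the inner membrane. They were chosen by symbol, as a list of 7 genes of the outer membrane translocase, 6 of the small TIM chaperones and the carrier translocase, 9 of the presequence translocase and its motor, 5 of matrix folding and proteolysis and 7 of outer membrane sorting and cristae, out of 60683 rows in the table. All 34 had a row, and 30 reached the expression level needed for a test. RNA came from EMT6, a cell line of mouse breast cancer, in 4 groups of 3 libraries that the labels call biological replicates. The groups were an ISG20 knockdown subclone made with a short hairpin RNA (shISG20) at 1% O2, the same subclone at 20% O2, a control subclone (shNTC) at 1% O2 and that control subclone at 20% O2, each for 48 hours. The label of shISG20 replicate 3 at 20% O2 reads 484 hours, and that library was kept in its group. ISG20 is an interferon-induced exonuclease, and the series asked how its depletion changes expression. Each arm is a single subclone, so the knockdown and any other property of a subclone cannot be told apart. No label says that replicates were grown as separate cultures, and the p-values therefore reflect the spread among these libraries, which may be technical.

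Most mitochondrial proteins are made in the cytosol and enter through the TOM complex of the outer membrane. Small TIM chaperones carry hydrophobic proteins across the intermembrane space to the TIM22 carrier translocase, and the TIM23 complex with its ATP-driven motor moves proteins with a presequence into the matrix. There the HSP60 chaperonin folds them, and the proteases LONP1 and CLPP remove those that fail. The MICOS complex bends the inner membrane into cristae and is tied to the outer membrane by the SAM complex, which inserts barrel-shaped proteins.

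Each library held 3173991 to 5201799 recovered reads. The reads of these mouse cells were counted on a human build, so levels in TPM (read density scaled to a fixed total per library) cannot be compared between genes, and a row near 0 may reflect mouse reads that found no human match. ISG20 itself stood at 0.413 to 0.69 TPM in shISG20 cells against 7.59 to 8.81 TPM in shNTC cells at 1% O2, and at 0.135 to 0.323 TPM in shISG20 cells against 2.03 to 2.7 TPM in shNTC cells at 20% O2. Of 7 epithelial and mammary markers only CDH1 was at 0, and their summed level was 233 to 239 TPM at 1% O2 against 47.8 to 57.8 TPM at 20% O2 in shISG20 cells, and 199 to 216 TPM at 1% O2 against 42.9 to 54.7 TPM at 20% O2 in shNTC cells. Of 7 leucocyte markers 6 were at 0 in all libraries, and CSF1R, the remaining one, gave 1.18 to 3.23 TPM at 1% O2 against at most 0.15 TPM at 20% O2. All 3 endothelial markers were at 0, and the 3 fibroblast markers summed to 1.78 to 3.34 TPM in shNTC cells at 1% O2 against 10.6 to 13.3 TPM in shNTC cells at 20% O2, and to at most 2.99 TPM in shISG20 cells. The 4 mesenchymal markers, of which CDH2 was at 0, summed to 8330 to 8490 TPM at 1% O2 against 1850 to 2100 TPM at 20% O2 in shISG20 cells, and to 7230 to 7350 TPM at 1% O2 against 2290 to 2360 TPM at 20% O2 in shNTC cells. The part of these marker changes in the results below was not tested.

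At 1% O2 the summed TPM of the import and folding genes was lower in both subclones, a sum in which rows of high TPM weigh most. Their summed level was 1225 to 1285 TPM in shISG20 cells at 1% O2 against 2493 to 2528 TPM at 20% O2, and 1373 to 1375 TPM in shNTC cells at 1% O2 against 2315 to 2326 TPM at 20% O2. Without HSPD1, the member with the most reads, the sums were 1096 to 1130 TPM at 1% O2 against 1938 to 1987 TPM at 20% O2 in shISG20 cells, and 1200.0 to 1209 TPM at 1% O2 against 1820.0 to 1833 TPM at 20% O2 in shNTC cells. The groups did not overlap in either sum. In bulk RNA, less RNA per cell and fewer cells that hold it cannot be told apart.

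Of the 30 tested members, 26 fell and 0 rose at 1% O2 in shISG20 cells, where 42.8% of all 14389 rows tested fell and 14.0% rose (limma, adjusted p below the threshold of 0.05). In shNTC cells 20 fell and 1 rose, where 38.1% of all rows fell and 12.8% rose. Of the 8337 tested rows whose symbol is also a mouse gene's, 54.6% fell and 15.2% rose in shISG20 cells, with a median log2 fold change of -0.47, and 48.8% fell and 14.7% rose in shNTC cells, with a median of -0.37. With unadjusted p below 0.05, 1 member was higher at 1% O2 in shISG20 cells. All 20 members that fell in shNTC cells fell in shISG20 cells too, and APOO, CHCHD3, IMMT, LONP1, MTX1 and TOMM22 passed only in shISG20 cells, of which the difference between subclones itself passed for IMMT, LONP1 and MTX1. The median log2 fold change of the members was -0.81 in shISG20 cells and -0.57 in shNTC cells, beside -0.35 and -0.28 over all rows tested. These values are on the log2(TPM + 1) scale, on which changes of low genes appear smaller.

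TPM values are shares of a total, and the typical row was itself lower at 1% O2, so the counts depend on the scale. With median-of-ratios size factors, which set the median of all rows to 0, 18 members fell and 4 rose at 1% O2 in shISG20 cells, beside 26.6% and 26.3% of all rows, and 15 fell and 4 rose in shNTC cells, beside 22.3% and 23.0%. The members' median was then -0.39 in shISG20 cells and -0.24 in shNTC cells. Both scales and both subclones shared 14 genes that fell, namely CLPP, DNAJC11, HSPD1, HSPE1, MTX2, TIMM10, TIMM13, TIMM22, TIMM23, TIMM9, TOMM20, TOMM40, TOMM70 and TRAP1. IMMT, TIMM17A and TIMM8B rose in both subclones with size factors, and of these only IMMT in shISG20 cells had a fold change below 0 on the TPM scale.

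**Figure D1:**
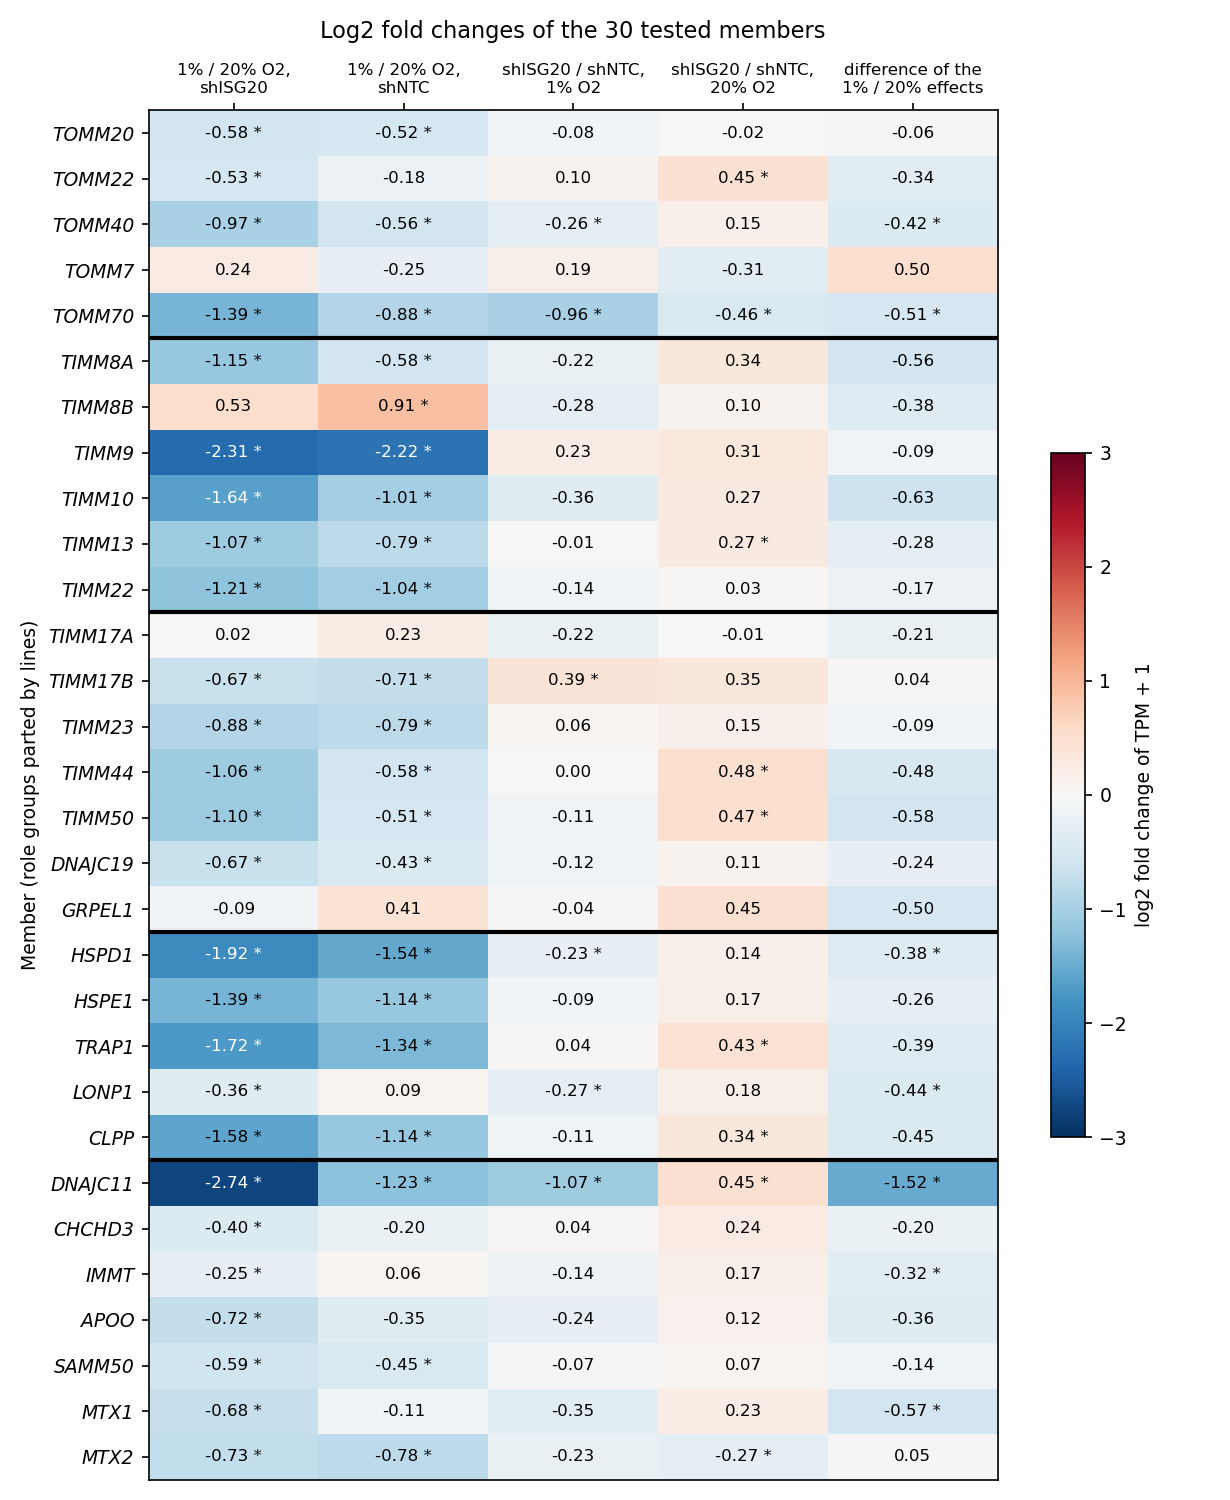
Log2 fold changes of TPM + 1 (colour and printed value) for the 30 tested members in rows, grouped by role, in the 2 comparisons of 1% with 20% O2, the 2 comparisons of shISG20 with shNTC cells and the difference between the oxygen effects. Asterisks mark adjusted p below 0.05, and the first 2 columns hold 26 and 20 members that fell, led by DNAJC11 at -2.74 in shISG20 cells.

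Among the 7 genes of the outer membrane translocase, 5 were tested. On the TPM scale 4 fell in shISG20 cells and 3 in shNTC cells at 1% O2, beside 42.8% and 38.1% of all rows. With size factors 3 fell in each, beside 26.6% and 22.3% of all rows, and 1 rose in shISG20 cells. TOMM20, a receptor for presequences, measured 148, 156 and 145 TPM at 1% O2 against 222, 220.2 and 229 TPM at 20% O2 in shISG20 cells. In shNTC cells TOMM20 measured 151, 154 and 169 TPM at 1% O2 against 221, 229.6 and 232 TPM at 20% O2. The oxygen groups did not overlap, and TOMM20 fell in shISG20 cells (log2 fold change -0.58 ± 0.05, SE, adjusted p = 2.32e-06) and in shNTC cells (-0.52 ± 0.05, adjusted p = 6.84e-06), with no call for the difference (adjusted p = 0.704). In shISG20 cells 46.2% of all rows tested had every library at 1% O2 below those at 20% O2, and in shNTC cells 43.3%. TOMM40, which forms the pore, stood at 58.8, 67.5 and 59.04 TPM at 1% O2 against 116, 126 and 124 TPM at 20% O2 in shISG20 cells. In shNTC cells TOMM40 stood at 77.5, 75.1 and 70.2 TPM at 1% O2 against 110.4, 106 and 113 TPM at 20% O2. The pore gene fell in shISG20 cells (-0.97 ± 0.07, adjusted p = 3.7e-07) and in shNTC cells (-0.56 ± 0.07, adjusted p = 4.01e-05). At 1% O2 its 3 shISG20 libraries were all below those of shNTC cells.

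TOMM70, the receptor for carrier proteins that lack a presequence, was lower in shISG20 than in shNTC cells at both oxygen levels. It gave 31.03, 33.9 and 36.4 TPM at 1% O2 against 88.8, 92.9 and 88.6 TPM at 20% O2 in shISG20 cells, and 67.1, 74.6 and 59.4 TPM at 1% O2 against 119, 124 and 128 TPM at 20% O2 in shNTC cells. None of the 4 groups overlapped with another. TOMM70 fell at 1% O2 in shISG20 cells (-1.39 ± 0.09, adjusted p = 1.43e-07) and in shNTC cells (-0.88 ± 0.09, adjusted p = 6.59e-06). TOMM22, the central receptor that organises the complex, was at 49.4, 51.1 and 44.3 TPM at 1% O2 against 67.5, 70.7 and 71.5 TPM at 20% O2 in shISG20 cells. In shNTC cells TOMM22 was at 43.3, 43.1 and 48.1 TPM at 1% O2 against 47.98, 53.7 and 51.6 TPM at 20% O2, and there the libraries overlapped. TOMM22 fell in shISG20 cells on the TPM scale (-0.53 ± 0.07, adjusted p = 0.0001) but not with size factors (-0.11, adjusted p = 0.237). In shNTC cells it was not called (-0.18 ± 0.07, adjusted p = 0.0579), and the difference between subclones was not called either (adjusted p = 0.0759). Rows named as TOMM22 pseudogenes held 22.4% of the reads of the gene and its copies. With these rows added the difference passed (-0.67, adjusted p = 0.0197), and the fold change in shNTC cells was 0.07 (adjusted p = 0.612).

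TOMM7, a small subunit that tunes the stability of the complex, averaged 63.3 ± 2.43 TPM at 1% O2 against 53.8 ± 9.67 TPM at 20% O2 in shISG20 cells, and 55.6 ± 4.74 TPM at 1% O2 against 66.3 ± 3.97 TPM at 20% O2 in shNTC cells (SD, n = 3 each). It passed in no comparison on the TPM scale (0.24, adjusted p = 0.0934 in shISG20 cells and -0.25, adjusted p = 0.0921 in shNTC cells). With size factors TOMM7 rose at 1% O2 in shISG20 cells (0.66, adjusted p = 0.000952) and was not called in shNTC cells (0.09, adjusted p = 0.612). Without shISG20 replicate 1 at 20% O2 the rise in shISG20 cells also passed from TPM (0.37, adjusted p = 0.0118), as did the difference between subclones (0.62, adjusted p = 0.0322). The other small subunits were sparsely covered. TOMM5 held 2 reads at 1% O2 against 8 at 20% O2 in shISG20 cells and 2 at 1% O2 against 11 at 20% O2 in shNTC cells, too few for a test. TOMM6 was listed at 0 in all 12 libraries.

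All 6 genes of the small TIM chaperones and the carrier translocase were tested. On the TPM scale 5 fell at 1% O2 in each subclone, beside 42.8% of all rows in shISG20 cells and 38.1% in shNTC cells. With size factors 5 fell in shISG20 cells and 4 in shNTC cells, beside 26.6% and 22.3% of all rows, and 1 rose in each. TIMM9, which forms the main chaperone hexamer with TIMM10, had one of the steepest decreases. It read 4.602, 9.89 and 8.97 TPM at 1% O2 against 37.03, 36.99 and 50.1 TPM at 20% O2 in shISG20 cells, and 7.84, 6.198 and 4.97 TPM at 1% O2 against 34.8, 31.6 and 32.1 TPM at 20% O2 in shNTC cells. These groups lay far apart, with log2 fold changes of -2.31 ± 0.24 (SE, adjusted p = 9.1e-06) in shISG20 cells and in shNTC cells (-2.22 ± 0.24, adjusted p = 1.57e-05), from 52 reads at 1% O2 against 268 at 20% O2 and from 51 reads at 1% O2 against 198 at 20% O2. Its partner TIMM10 fell in shISG20 cells (-1.64) and in shNTC cells (-1.01), from only 17 to 58 reads per group. TIMM13, which pairs with TIMM8A in the second hexamer, was at 141, 138 and 129 TPM at 1% O2 against 269, 298 and 294 TPM at 20% O2 in shISG20 cells. In shNTC cells TIMM13 was at 129, 136 and 148 TPM at 1% O2 against 215, 249 and 254 TPM at 20% O2. No library at 1% O2 reached any at 20% O2, and TIMM13 fell in shISG20 cells (-1.07 ± 0.08, adjusted p = 4.93e-07) and in shNTC cells (-0.79 ± 0.08, adjusted p = 7.1e-06).

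TIMM8A, whose human gene is mutated in deafness-dystonia syndrome, gave 10.8, 8.100 and 8.93 TPM at 1% O2 against 22.5, 21.6 and 20.8 TPM at 20% O2 in shISG20 cells and 9.17, 14.1 and 9.97 TPM at 1% O2 against 19.3, 14.3 and 17.2 TPM at 20% O2 in shNTC cells. It fell in shISG20 cells (-1.15 ± 0.16, adjusted p = 0.000108) and in shNTC cells (-0.58 ± 0.16, adjusted p = 0.0113), and with size factors the decrease in shNTC cells did not pass (-0.26, adjusted p = 0.224). Its paralogue TIMM8B had the opposite order. TIMM8B had 17.8, 16.7 and 22.4 TPM at 1% O2 against 11.2, 11.6 and 15.9 TPM at 20% O2 in shISG20 cells, and 27.7, 19.2 and 23.1 TPM at 1% O2 against 8.92, 11.6 and 15.97 TPM at 20% O2 in shNTC cells. All libraries at 1% O2 were above those at 20% O2 of the same subclone, and TIMM8B rose in shNTC cells (0.91 ± 0.21, adjusted p = 0.00416) and was not called in shISG20 cells (0.53 ± 0.21, adjusted p = 0.0546). The difference between those effects was not called (adjusted p = 0.505). Rows named as TIMM8B pseudogenes held 64.2% of the reads of the gene and its copies, and with these rows added TIMM8B rose in both subclones (0.54, adjusted p = 0.00125 in shISG20 cells and 0.69, adjusted p = 0.00027 in shNTC cells). TIMM22, the channel of the carrier translocase, fell in shISG20 cells (-1.21 ± 0.18) and in shNTC cells (-1.04 ± 0.18). It was a low gene, with means at 1% O2 of 1.71 TPM in shISG20 cells and 1.97 TPM in shNTC cells. These came from 26 reads at 1% O2 against 78 at 20% O2 in shISG20 cells, and 35 against 71 in shNTC cells.

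In the presequence translocase and its motor, 7 of 9 genes were tested. On the TPM scale 5 fell at 1% O2 in each subclone, beside 42.8% of all rows in shISG20 cells and 38.1% in shNTC cells. With size factors 3 fell in shISG20 cells and 2 in shNTC cells, beside 26.6% and 22.3% of all rows, and 1 rose in each. TIMM23, the channel subunit, was at 179.7, 200.1 and 192 TPM at 1% O2 against 348, 353 and 353 TPM at 20% O2 in shISG20 cells. In shNTC cells TIMM23 was at 183, 173 and 192 TPM at 1% O2 against 329, 314 and 305 TPM at 20% O2. The channel gene fell in shISG20 cells (-0.88 ± 0.05, SE, adjusted p = 1.24e-07) and in shNTC cells (-0.79 ± 0.05, adjusted p = 4.08e-07), and the difference was not called (adjusted p = 0.511). TIMM50, the receptor that takes presequences over from the TOM complex, gave 15.7, 13.8 and 18.3 TPM at 1% O2 against 36.99, 33.6 and 34.3 TPM at 20% O2 in shISG20 cells and 18.5, 18.3 and 14.9 TPM at 1% O2 against 24.01, 26.5 and 24.1 TPM at 20% O2 in shNTC cells. TIMM44, which anchors the motor to the channel, gave 8.44, 7.09 and 5.94 TPM at 1% O2 against 16.97, 15.4 and 15.3 TPM at 20% O2 in shISG20 cells and 7.299, 6.52 and 7.46 TPM at 1% O2 against 10.9, 10.5 and 11.9 TPM at 20% O2 in shNTC cells. Both genes were lowest at 1% O2 and highest in shISG20 cells at 20% O2. TIMM50 fell in shISG20 cells (-1.10) and in shNTC cells (-0.51). TIMM44 fell in shISG20 cells (-1.06) and in shNTC cells (-0.58). With size factors neither decrease passed in shNTC cells (adjusted p = 0.221 for TIMM50 and 0.105 for TIMM44).

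The channel's paralogous partners TIMM17A and TIMM17B parted. TIMM17B, which belongs to the housekeeping form of the translocase, measured 13.9, 13.5 and 15.98 TPM at 1% O2 against 24.98, 24.6 and 21.1 TPM at 20% O2 in shISG20 cells, and 9.46, 10.8 and 12.2 TPM at 1% O2 against 19.2, 18.5 and 17.2 TPM at 20% O2 in shNTC cells. TIMM17B fell in shISG20 cells (-0.67 ± 0.11, adjusted p = 0.000395) and in shNTC cells (-0.71 ± 0.11, adjusted p = 0.000314). With size factors the decrease in shISG20 cells did not pass (-0.27, adjusted p = 0.0862). TIMM17A, the stress-regulated subunit that is degraded in several stress states, measured 25.9, 27.8 and 25.8 TPM at 1% O2 against 23.99, 29.2 and 25.3 TPM at 20% O2 in shISG20 cells, and 32.9, 32.1 and 28.3 TPM at 1% O2 against 23.5, 25.1 and 30.6 TPM at 20% O2 in shNTC cells. Its oxygen groups overlapped in both subclones, and on the TPM scale its log2 fold changes of 0.02 in shISG20 cells and in shNTC cells (0.23) did not pass. With size factors TIMM17A rose in shISG20 cells (0.43, adjusted p = 0.00475) and in shNTC cells (0.56, adjusted p = 0.00102). DNAJC19, a J-protein of the motor, fell in shISG20 cells (-0.67) and in shNTC cells (-0.43) on the TPM scale, and in neither with size factors. GRPEL1, the nucleotide exchange factor of the matrix HSP70, was low and variable, with means of 2.601 ± 1.099 TPM at 1% O2 against 2.803 ± 1.07 TPM at 20% O2 in shISG20 cells and 2.61 ± 0.353 TPM at 1% O2 against 1.75 ± 0.6000 TPM at 20% O2 in shNTC cells (SD, n = 3 each), and it passed in no comparison. PAM16 and TIMM21, subunits of the motor and of the translocase, held at most 2 reads in any group.

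Of the 5 genes of matrix folding and proteolysis, 5 fell in shISG20 cells and 4 in shNTC cells at 1% O2 on the TPM scale. The shares of all rows were 42.8% and 38.1%. With size factors 4 fell in each, beside 26.6% and 22.3% of all rows, and 1 rose in shNTC cells. HSPD1, the HSP60 subunit that forms the folding chamber, was at 149.7, 155 and 129 TPM at 1% O2 against 555, 551 and 532 TPM at 20% O2 in shISG20 cells. In shNTC cells HSPD1 was at 172, 171 and 166 TPM at 1% O2 against 505, 485 and 493 TPM at 20% O2. The oxygen groups lay far apart, and HSPD1 fell in shISG20 cells (-1.92 ± 0.06, SE, adjusted p = 1.11e-09) and in shNTC cells (-1.54 ± 0.06, adjusted p = 7.86e-09). HSPE1, the HSP10 lid of that chamber, was at 20.5, 22.05 and 22.8 TPM at 1% O2 against 57.5, 56.1 and 63.1 TPM at 20% O2 in shISG20 cells. In shNTC cells HSPE1 was at 25.5, 19.3 and 25.6 TPM at 1% O2 against 57.4, 53.1 and 47.00 TPM at 20% O2. The lid gene fell in shISG20 cells (-1.39 ± 0.12, adjusted p = 1.55e-06) and in shNTC cells (-1.14 ± 0.12, adjusted p = 1.01e-05). Rows named as pseudogenes held 46.6% of the reads of HSPD1 and its copies and 65.2% of those of HSPE1. With these rows added, the log2 fold changes of HSPD1 were -1.86 in shISG20 cells and -1.61 in shNTC cells, and those of HSPE1 were -1.35 in shISG20 cells and -1.26 in shNTC cells. Of the pseudogene rows of HSPD1, 15 of 16 tested fell in shISG20 cells and 12 of 16 in shNTC cells. Among those of HSPE1, 7 of 14 tested fell in each subclone. The shares of all rows tested that fell were 42.8% in shISG20 cells and 38.1% in shNTC cells. These pseudogene rows belong to the human build and may hold reads of the mouse genes themselves. Their counts are therefore not independent of the decreases of HSPD1 and HSPE1.

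TRAP1, the HSP90 of the matrix, gave 14.6, 13.6 and 12.8 TPM at 1% O2 against 47.01, 45.6 and 49.7 TPM at 20% O2 in shISG20 cells and 12.1, 14.6 and 13.2 TPM at 1% O2 against 36.4, 33.97 and 34.8 TPM at 20% O2 in shNTC cells. CLPP, the proteolytic core of the ClpXP protease, gave 13.3, 15.5 and 12.8 TPM at 1% O2 against 40.8, 46.3 and 42.8 TPM at 20% O2 in shISG20 cells and 16.2, 15.1 and 13.8 TPM at 1% O2 against 32.4, 35.7 and 34.2 TPM at 20% O2 in shNTC cells. The libraries of the subclones overlapped at 1% O2 for both genes, while at 20% O2 all shISG20 libraries were above those of shNTC cells. TRAP1 fell in shISG20 cells (-1.72 ± 0.09, adjusted p = 3.03e-08) and in shNTC cells (-1.34 ± 0.09, adjusted p = 2.74e-07). CLPP fell in shISG20 cells (-1.58 ± 0.09, adjusted p = 1.21e-07) and in shNTC cells (-1.14 ± 0.09, adjusted p = 2.17e-06). The other matrix protease, LONP1, which degrades oxidised proteins, was at 59.9, 56.6 and 56.8 TPM at 1% O2 against 71.4, 74.7 and 76.8 TPM at 20% O2 in shISG20 cells, and at 69.4, 71.7 and 67.8 TPM at 1% O2 against 65.3, 63.9 and 67.4 TPM at 20% O2 in shNTC cells. LONP1 was lower at 1% O2 in all 3 shISG20 libraries (-0.36 ± 0.05, adjusted p = 0.000149) and slightly higher in all 3 shNTC libraries (0.09 ± 0.05, adjusted p = 0.2, not called). With size factors LONP1 did not differ by the test in shISG20 cells (0.06, adjusted p = 0.368) and rose in shNTC cells (0.42, adjusted p = 6.49e-05).

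**Figure D2:**
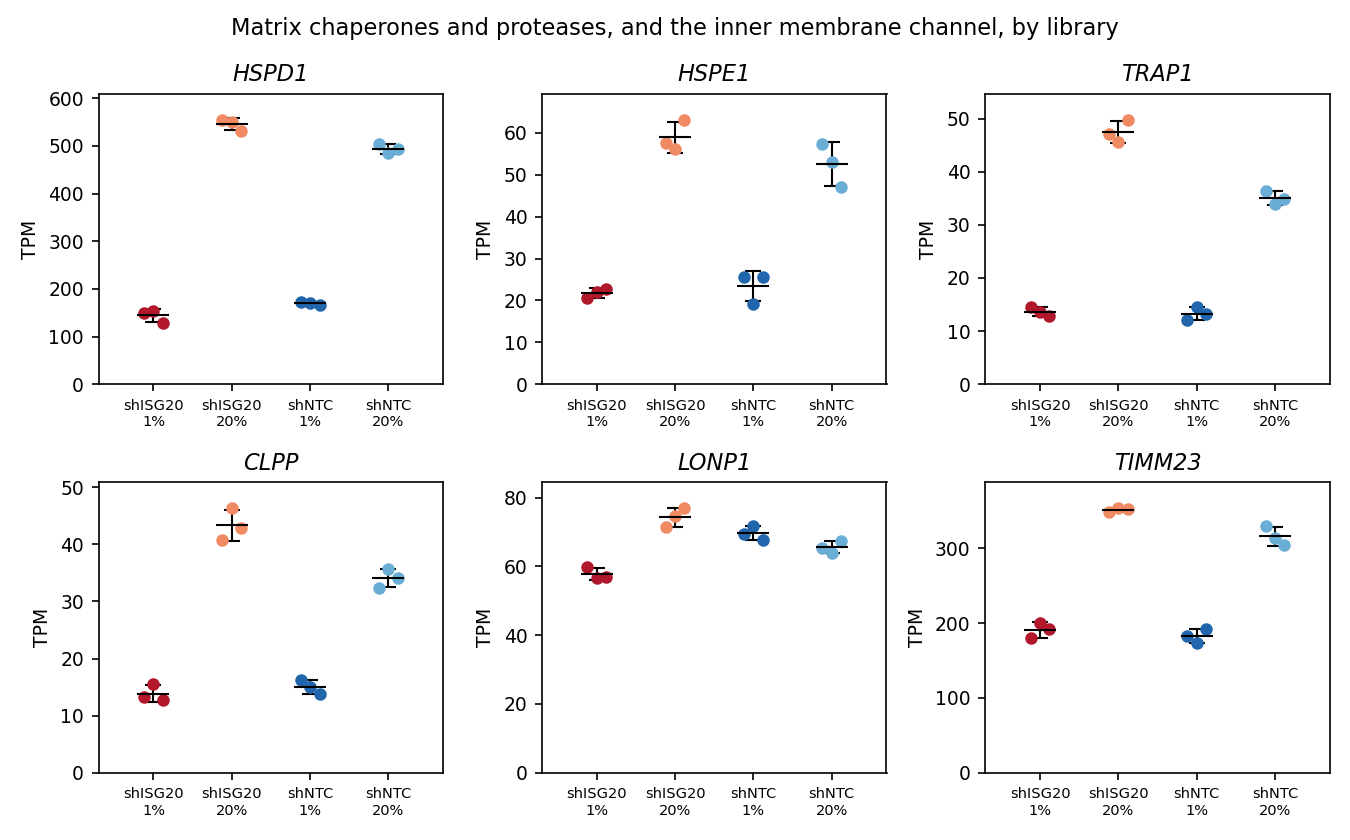
TPM per library (points), with mean and SD (bars, n = 3), for HSPD1, HSPE1, TRAP1, CLPP, LONP1 and TIMM23 in shISG20 cells at 1% and 20% O2 and in shNTC cells at 1% and 20% O2. All panels but LONP1 show both groups at 1% O2 below both groups at 20% O2, and LONP1 at 1% O2 is below its level at 20% O2 in shISG20 cells and just above it in shNTC cells.

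The chaperonin genes are neighbours in the mouse genome, and the stretch between them is shown because both transcripts start from it. In RefSeq on GRCm38.p6, Hspd1 starts at position 55087932 of chromosome 1 on the minus strand and Hspe1 at 55088148 on the plus strand, 216 bases apart. The 217 bases of chr1:55087932-55088148, plus strand, are 70.5% G or C, and capitals mark the 2 matches to TTCNNGAA, an inverted pair of the unit bound by heat shock factors.
Hspd1 to Hspe1: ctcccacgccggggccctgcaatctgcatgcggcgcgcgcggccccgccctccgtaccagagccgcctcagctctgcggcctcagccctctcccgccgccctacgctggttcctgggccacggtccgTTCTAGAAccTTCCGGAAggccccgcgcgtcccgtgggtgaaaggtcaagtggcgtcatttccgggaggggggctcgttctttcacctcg
The motif reads the same on both strands, was looked for after the levels had been seen, and its 2 matches do not overlap. Windows of 250 bases before to 50 after the start were found for 31 of the 34 members, 34 windows in all. TTCNNGAA was in the windows of 8 of the 31 genes, CLPP, HSPD1, HSPE1, TIMM10, TIMM13, TIMM9, TOMM20 and TOMM22, or 23.5% of the members' windows against 8.52% of all 32851 windows of the same length. Those of Hspd1 and Hspe1 share 285 bases and so the same matches. GCGCATG, a core of sites for the factor NRF1, was in 3 windows (GRPEL1, PAM16 and TIMM13), 8.82% of the members' windows against 3.91% of all windows, and TGATGNAA, a core of amino acid response elements, was in 0 of them against 3.97% of all windows. Both strands were searched, and a match is only a match of letters.

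On the TPM scale 7 of 7 outer membrane sorting and cristae genes fell in shISG20 cells and 3 of 7 in shNTC cells at 1% O2, beside 42.8% and 38.1% of all rows. With size factors 3 of 7 fell and 1 rose in shISG20 cells, beside 26.6% and 26.3% of all rows. In shNTC cells 2 fell and 1 rose, beside 22.3% and 23.0% of all rows. DNAJC11, a J-protein of the bridge between MICOS and the sorting complex, had the lowest log2 fold change of the 30 tested members in shISG20 cells, while in shNTC cells TIMM9, HSPD1 and TRAP1 had lower ones. It measured 4.55, 4.79 and 4.304 TPM at 1% O2 against 35.5, 37.1 and 35.8 TPM at 20% O2 in shISG20 cells, and 8.74, 12.2 and 11.3 TPM at 1% O2 against 24.6, 27.2 and 27.1 TPM at 20% O2 in shNTC cells. None of the 4 groups overlapped, with shISG20 cells the highest at 20% O2 and the lowest at 1% O2. DNAJC11 fell in shISG20 cells (-2.74 ± 0.11, SE, adjusted p = 7.42e-09) and in shNTC cells (-1.23 ± 0.11, adjusted p = 4.72e-06). MTX2, an outer membrane import and sorting protein, was at 90.1, 74.1 and 80.98 TPM at 1% O2 against 142, 129.6 and 137 TPM at 20% O2 in shISG20 cells and at 99.4, 99.95 and 87.97 TPM at 1% O2 against 172, 166 and 158 TPM at 20% O2 in shNTC cells. Its partner MTX1 was at 12.8, 16.2 and 12.9 TPM at 1% O2 against 22.8, 21.7 and 24.3 TPM at 20% O2 in shISG20 cells and at 18.3, 18.7 and 16.8 TPM at 1% O2 against 18.8, 18.2 and 21.4 TPM at 20% O2 in shNTC cells. MTX2 fell in both subclones, in shISG20 cells (-0.73 ± 0.08, adjusted p = 1.16e-05) and in shNTC cells (-0.78 ± 0.08, adjusted p = 9.2e-06), whereas MTX1 fell in shISG20 cells (-0.68 ± 0.10, adjusted p = 0.000207) and its libraries overlapped in shNTC cells (-0.11 ± 0.10, adjusted p = 0.427).

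IMMT, the mitofilin core of MICOS, was at 62.4, 60.3 and 62.3 TPM at 1% O2 against 70.4, 74.9 and 75.7 TPM at 20% O2 in shISG20 cells, and at 69.8, 69.1 and 66.2 TPM at 1% O2 against 66.3, 66.2 and 63.5 TPM at 20% O2 in shNTC cells. Its changes were small, and in shISG20 cells the direction depended on the scale. From TPM, IMMT fell in shISG20 cells (-0.25 ± 0.05, adjusted p = 0.00146) and was not called in shNTC cells (0.06 ± 0.05, adjusted p = 0.334). With size factors IMMT rose in shISG20 cells (0.17, adjusted p = 0.0182) and in shNTC cells (0.40, adjusted p = 7.61e-05). CHCHD3, which links MICOS to the sorting complex, fell in shISG20 cells (-0.40 ± 0.14, adjusted p = 0.0301), and not with size factors (0.01) or without shISG20 replicate 1 or 2 at either oxygen level, where the adjusted p was 0.0573 to 0.106. APOO, a lipid-binding MICOS subunit, fell in shISG20 cells (-0.72), and SAMM50, the barrel that inserts barrels, in shISG20 cells (-0.59) and in shNTC cells (-0.45). With size factors none of these APOO and SAMM50 decreases passed.

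**Figure D3:**
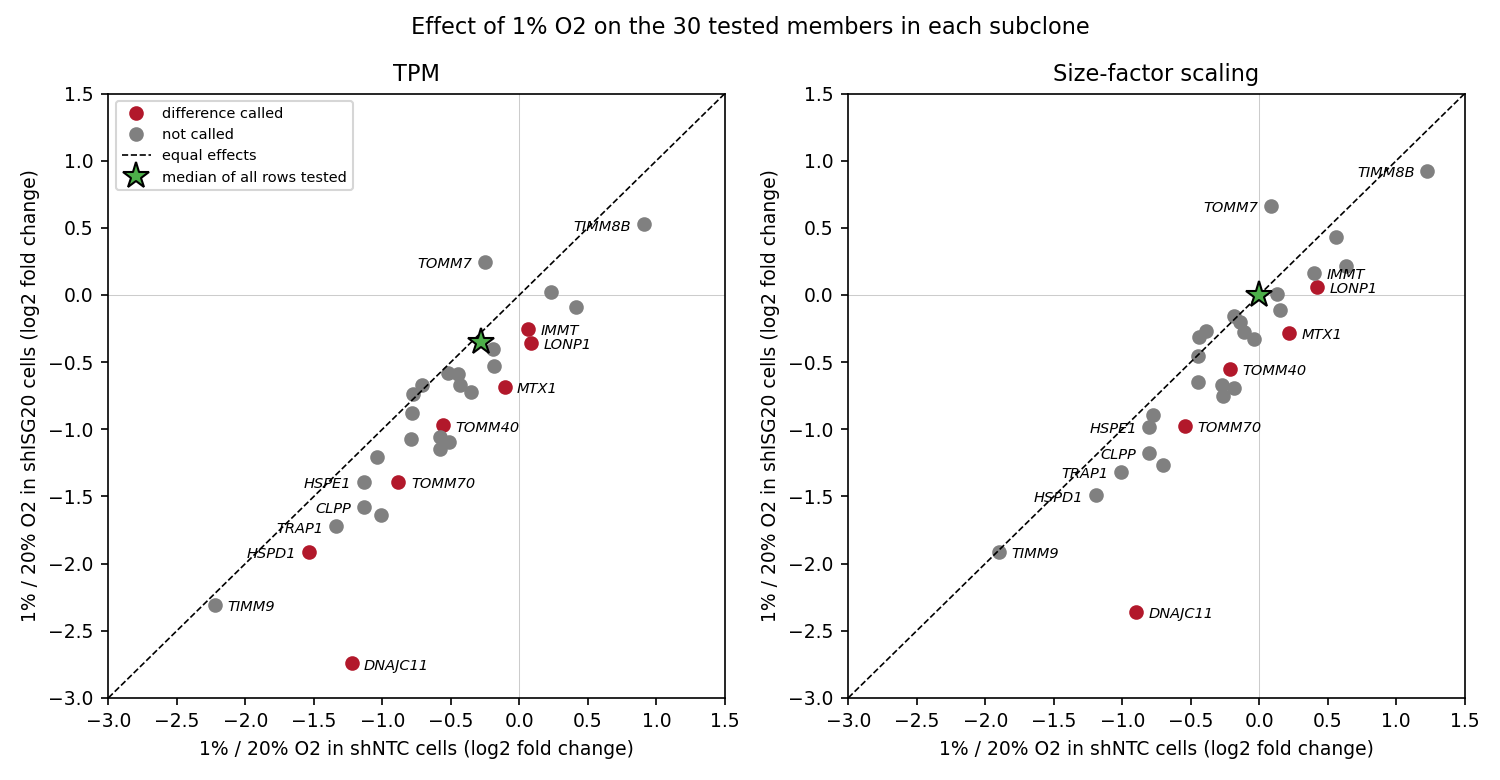
Log2 fold change of 1% over 20% O2 in shISG20 cells (vertical) against that in shNTC cells (horizontal) for the 30 tested members, from log2(TPM + 1) on the left and with size factors on the right. The star marks the median of all rows tested, the dashed line equal effects and red a called difference, with 7 red members on the left and 5 on the right, all below the line.

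The effect of 1% O2 differed between subclones for 7 of the 30 members, all with a lower value in shISG20 cells, beside 4.31% of all rows lower and 2.62% higher, and 0 members were higher (1 at an unadjusted p below 0.05). The 7 were DNAJC11, MTX1, TOMM70, LONP1, TOMM40, HSPD1 and IMMT. For DNAJC11 the difference of the log2 fold changes was -1.52 ± 0.16 (SE, adjusted p = 0.001), and for LONP1 it was -0.44 ± 0.07 (adjusted p = 0.00716). The differences of the other 5 lay between -0.57 for MTX1 and -0.32 for IMMT, with adjusted p of 0.026 to 0.0454. DNAJC11 and LONP1 kept the call without any single library, while TOMM40, TOMM70, HSPD1, IMMT and MTX1 lost it without 6 to 10 of the 12 libraries taken in turn, at adjusted p of 0.0509 to 0.1. With size factors 5 of the 7 passed, HSPD1 and IMMT missing, beside 3.17% of all rows lower and 4.14% higher. With pseudogene rows added to their genes, HSPD1, MTX1 and TOMM40 kept the call and IMMT lost it (-0.21, adjusted p = 0.0839). TOMM22 then passed (-0.67, adjusted p = 0.0197). The median difference over the members was -0.35, beside -0.09 over all rows tested and -0.115 over the tested rows with a mouse symbol. With size factors the members' median was -0.28, beside -0.02 over all rows tested.

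At 1% O2, 5 members were lower and 1 was higher in shISG20 than in shNTC cells, beside 9.66% and 4.25% of all rows. DNAJC11 fell (-1.07 ± 0.11, SE, adjusted p = 0.00026) and TOMM70 (-0.96 ± 0.09, adjusted p = 8.84e-05), and the 3 libraries of each subclone, given above, did not overlap. All shISG20 libraries were below all shNTC libraries for 20.2% of all rows tested. LONP1 fell (-0.27 ± 0.05, adjusted p = 0.00819), and these 3 genes kept the call without any single library. TOMM40 (-0.26 ± 0.07, adjusted p = 0.025) and HSPD1 (-0.23 ± 0.06, adjusted p = 0.0264) fell to a lesser degree. HSPD1 lost the call without shNTC replicate 1 or 2 at 1% O2 (adjusted p = 0.076 and 0.0801), and TOMM40 without either of these or without shISG20 replicate 1 or 3 at 1% O2 (adjusted p = 0.0793 to 0.087). TIMM17B rose by 0.39 ± 0.11 (adjusted p = 0.0437), and lost the call without any of 10 of the 12 libraries taken in turn (adjusted p up to 0.143). The members' median log2 fold change was -0.12, beside -0.07 over all rows tested and -0.11 over the tested rows with a mouse symbol. Of those 8337 rows, 1138 were lower and 363 higher, so the members' median was close to that of such rows. With size factors 4 members were lower and 1 was higher, beside 7.53% and 7.15% of all rows, and the members' median was -0.04. HSPD1 was not called on that scale (-0.16, adjusted p = 0.0914).

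At 20% O2, 7 members were higher and 2 were lower in shISG20 than in shNTC cells, beside 5.05% and 6.55% of all rows. TOMM22 rose by 0.45 ± 0.07 (SE, adjusted p = 0.00332) and TRAP1 (0.43 ± 0.09, adjusted p = 0.00872), and TOMM70 fell (-0.46 ± 0.09, adjusted p = 0.00603). These 3 kept their call without any single library, and the libraries of the subclones did not overlap for any of them. Such separation was common, with all shISG20 libraries higher for 16.2% of all rows tested and all lower for 15.0%. TIMM44, TIMM50, DNAJC11, CLPP and TIMM13 rose by 0.48, 0.47, 0.45, 0.34 and 0.27, at adjusted p of 0.022 to 0.0481, and MTX2 fell (-0.27, adjusted p = 0.0453). Each of these 6 lost the call without 5 to 11 of the 12 libraries taken in turn, and without any 1 of the 6 libraries at 20% O2 only 2 or 3 members were called higher. Fold changes were above 0 for 25 of the 30 members, beside 7464 of the 14389 rows tested, with a median of 0.17 beside 0.02 over all rows tested. The members were not alone in this. Of 22 tested other mitochondrial proteins, a list described below, 5 were higher and 1 was lower. Their median was 0.13, and 17 of the 22 had fold changes above 0. With size factors 6 members were higher and 1 was lower, beside 5.12% and 6.66% of all rows. TIMM13 and MTX2 were not called on that scale (adjusted p = 0.0599 and 0.0586).

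**Figure D4:**
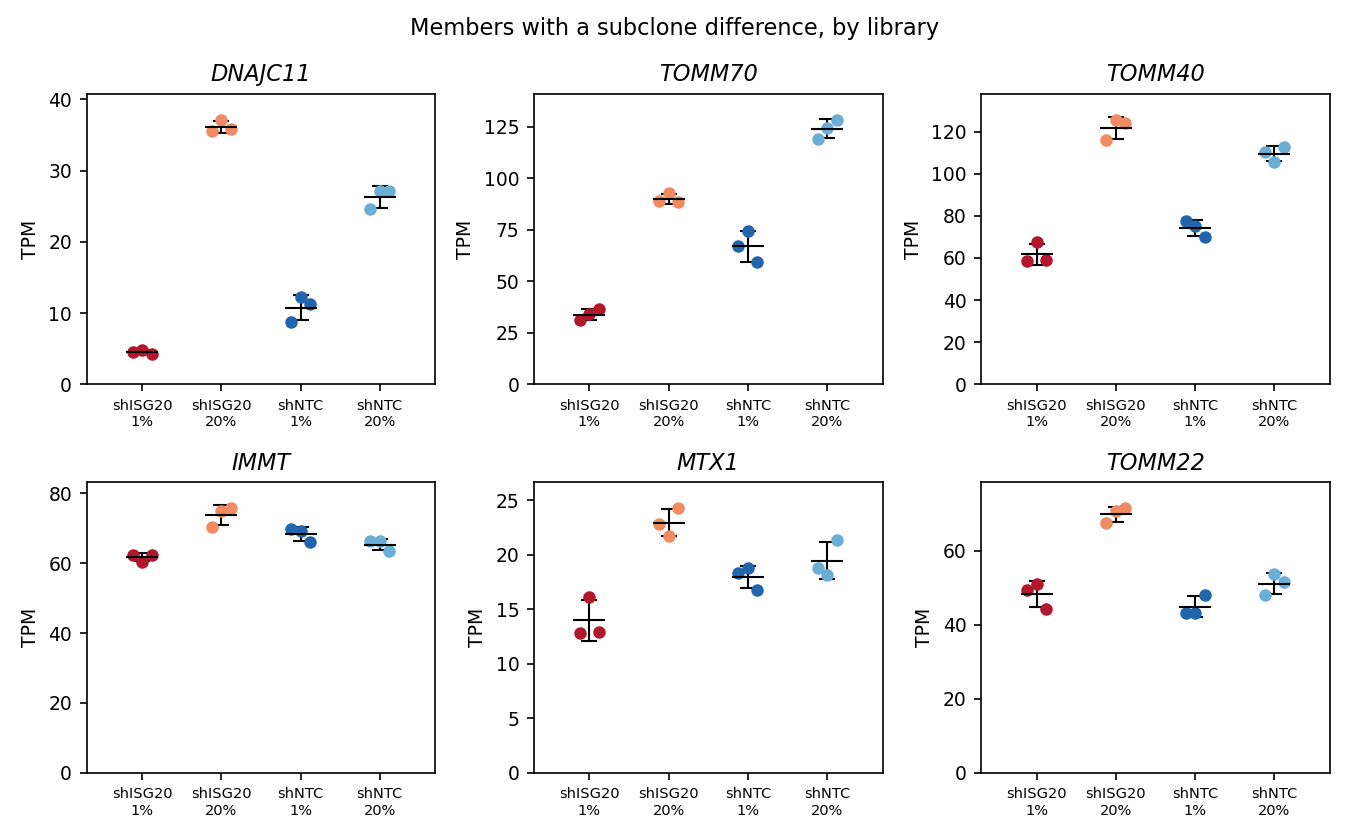
TPM per library (points), with mean and SD (bars, n = 3), for DNAJC11, TOMM70, TOMM40, IMMT, MTX1 and TOMM22 in shISG20 cells at 1% and 20% O2 and in shNTC cells at 1% and 20% O2. DNAJC11 in shISG20 cells lies at 4.30 to 4.79 TPM at 1% O2 and at 35.5 to 37.1 TPM at 20% O2.

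DNAJC11 and TOMM70, the members with the largest called differences between subclones at 1% O2, followed different orders. DNAJC11 averaged 4.55 ± 0.244 TPM in shISG20 cells and 10.8 ± 1.79 TPM in shNTC cells at 1% O2, but 36.1 ± 0.852 TPM in shISG20 cells and 26.3 ± 1.496 TPM in shNTC cells at 20% O2 (SD, n = 3 each). TOMM70 averaged 33.8 ± 2.69 TPM in shISG20 cells and 67.03 ± 7.62 TPM in shNTC cells at 1% O2, and 90.1 ± 2.43 TPM in shISG20 cells and 124 ± 4.602 TPM in shNTC cells at 20% O2. The subclone order of DNAJC11 turned round between oxygen levels, whereas TOMM70 was lower in shISG20 cells at both.

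Several members with a shared task changed by unequal amounts, and 5 pairs, chosen after the values had been seen and given with no test, are set side by side as log2 ratios of TPM within a library. Such a ratio does not depend on the scale between libraries. The ratio of LONP1 to CLPP, the proteases, was 1.87 to 2.18 at 1% O2 against 0.69 to 0.84 at 20% O2 in shISG20 cells, and 2.10 to 2.30 at 1% O2 against 0.84 to 1.01 at 20% O2 in shNTC cells. That of TIMM8B to TIMM8A, the paralogous chaperones, was 0.72 to 1.33 at 1% O2 against -1.002 to -0.39 at 20% O2 in shISG20 cells, and 0.45 to 1.59 at 1% O2 against -1.12 to -0.10 at 20% O2 in shNTC cells. For both pairs all libraries at 1% O2 were above all those at 20% O2. TIMM17A to TIMM17B, the paralogous translocase subunits, stood at 0.69 to 1.04 at 1% O2 against -0.06 to 0.26 at 20% O2 in shISG20 cells, and at 1.21 to 1.80 at 1% O2 against 0.29 to 0.84 at 20% O2 in shNTC cells. IMMT to DNAJC11, both tied to cristae, stood at 3.65 to 3.86 at 1% O2 against 0.99 to 1.08 at 20% O2 in shISG20 cells, and at 2.50 to 3.00 at 1% O2 against 1.23 to 1.43 at 20% O2 in shNTC cells. Both ratios were higher at 1% O2 within each subclone with no overlap. HSPD1 to HSPE1, the chaperonin partners, stood at 2.50 to 2.87 at 1% O2 against 3.07 to 3.30 at 20% O2 in shISG20 cells, and at 2.69 to 3.15 at 1% O2 against 3.13 to 3.39 at 20% O2 in shNTC cells, where the groups overlapped.

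**Figure D5:**
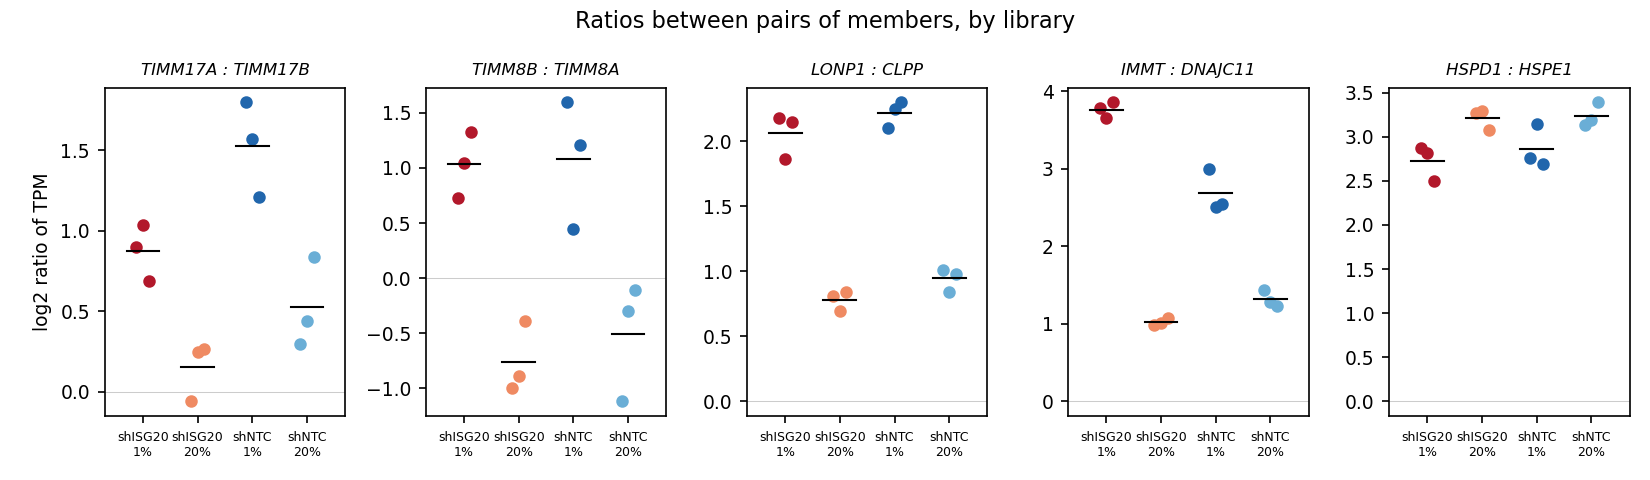
Log2 ratio of TPM of 5 pairs of members per library (points) with group means (lines), in shISG20 cells at 1% and 20% O2 and in shNTC cells at 1% and 20% O2. The first 4 ratios are higher at 1% than at 20% O2 in each subclone, by 0.72 to 2.74 in shISG20 cells and by 1.00 to 1.59 in shNTC cells.

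Of other genes of import, folding and cristae, a list of 46 in the table, 39 were tested. In shISG20 cells 26 fell and 2 rose at 1% O2, beside 42.8% and 14.0% of all rows, with a median of -0.49. In shNTC cells 25 fell and 4 rose, beside 38.1% and 12.8% of all rows, with a median of -0.45. HTRA2, a protease of the intermembrane space, fell in shISG20 cells (-1.81) and in shNTC cells (-1.75), TMEM11, a MICOS-associated protein, in shISG20 cells (-1.32), and MTCH2, an outer membrane insertase, in shNTC cells (-0.53). Genes were named by smallest p in each comparison, so one given for a single subclone may have changed in the other too. With size factors TMEM11 also fell in shNTC cells (-0.565, adjusted p = 0.000233). On that scale the difference between subclones was not called for TMEM11 (adjusted p = 0.116) or MTCH2 (adjusted p = 0.225). STOML2, a scaffold of inner membrane proteases, fell in shISG20 cells (-1.12) and in shNTC cells (-0.90). AFG3L2, a subunit of the m-AAA protease of the inner membrane, rose in shISG20 cells (0.76) and in shNTC cells (0.81), and MTCH1, a relative of MTCH2, in shISG20 cells (0.51) and in shNTC cells (0.59). A second list of 26 other mitochondrial proteins, such as citrate cycle enzymes and VDAC channels, had 22 tested. Of these, 17 fell and 1 rose in shISG20 cells, beside 42.8% and 14.0% of all rows, with a median of -0.42. In shNTC cells 15 fell and 1 rose, beside 38.1% and 12.8% of all rows, with a median of -0.39. With size factors 16 of the 39 fell and 10 rose in shISG20 cells, beside 26.6% and 26.3% of all rows. In shNTC cells 13 of the 39 fell and 6 rose, beside 22.3% and 23.0% of all rows. Of the 22 in the second list, 7 fell and 7 rose in shISG20 cells and 8 fell and 7 rose in shNTC cells, beside the same shares. On the TPM scale both lists, like the members, had medians below those of all rows. Against the rows with a mouse symbol the second list's median was higher in shISG20 cells (-0.42 beside -0.47) and lower in shNTC cells (-0.39 beside -0.37).

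HSPA9, the matrix HSP70 that drives the import motor and works with the chaperonin, did not follow HSPD1. It was at 655, 703 and 661 TPM at 1% O2 against 769.8, 777 and 775 TPM at 20% O2 in shISG20 cells, and at 745, 726 and 733 TPM at 1% O2 against 642, 644 and 639 TPM at 20% O2 in shNTC cells. On the TPM scale HSPA9 fell at 1% O2 in shISG20 cells (-0.20, adjusted p = 0.000199) and rose in shNTC cells (0.20, adjusted p = 0.000325). With size factors it rose in both, in shISG20 cells (0.22, adjusted p = 6.69e-05) and in shNTC cells (0.54, adjusted p = 8.13e-08). The effect was lower in shISG20 cells on both scales, with a difference of -0.40 from TPM (adjusted p = 0.00109) and -0.32 with size factors (adjusted p = 0.00197). Against shNTC cells, HSPA9 in shISG20 cells rose at 20% O2 (0.27, adjusted p = 0.00037) and fell at 1% O2 (-0.13, adjusted p = 0.021), where the call was lost with size factors (-0.05, adjusted p = 0.283). The oxygen effect was also lower in shISG20 cells for PHB2, a prohibitin of the inner membrane (-0.30, adjusted p = 0.0288), and DNAJA3, a J-protein of the matrix (-0.57, adjusted p = 0.037), 3 of the 39 in all and 0 higher (3 at an unadjusted p below 0.05), beside 4.31% and 2.62% of all rows. Between subclones, 4 of the 39 rose and 0 fell at 20% O2 (1 at an unadjusted p below 0.05), beside 5.05% and 6.55% of all rows, among them CLPB, a disaggregase (0.37), and MTCH2 (0.14). At 1% O2, 3 rose, MTCH2 (0.18), GRPEL2 (0.85), the paralogue of GRPEL1, and YME1L1 (0.23), an inner membrane protease, and 4 fell, among them PHB2 (-0.33) and AIFM1 (-0.35), an import factor of the intermembrane space, beside 4.25% and 9.66% of all rows. With size factors the differences for PHB2 and DNAJA3 in the oxygen effect and for AIFM1 at 1% O2 were not called (adjusted p = 0.0782, 0.0625 and 0.0568). The counts between subclones at 1% O2 depended on the scale. With size factors 6 of the 39 rose and 1 fell there, beside 7.15% and 7.53% of all rows.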

How the data were processed

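The authors deposited one table of transcripts-per-million values (TPM) for the 12 libraries. Per the submitters' processing notes, FastQC, STAR and featureCounts were run with the human build GRCh38; the step from counts to TPM is not given in the sources used here. Values of a row were whole multiples of a common step between libraries (100% of values above 0, tolerance 0.01), which gave the reads quoted. Each column is read as the library that its name gives.

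The 14389 rows that reached 1 TPM in 3 or more of the 12 libraries were tested on log2(TPM + 1) with limma 3.58.1 in R 4.3.3, with empirical Bayes moderation and a variance trend, fitting all 4 groups without covariates. Adjusted p-values are Benjamini-Hochberg values over all 14389 rows of a comparison, called below 0.05. The fit was checked on simulated data. Means carry SDs and log2 fold changes carry standard errors (SE).

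Levels in every library are given for HSPD1, HSPE1, the 3 members of each role group with the smallest p, and members called between subclones or in the difference of oxygen effects. TIMM8B, TIMM17A and HSPA9 were added after their values had been seen. The members, lists and role groups were chosen with earlier results of these data known. Promoters come from RefSeq (GRCm38.p6), and mouse positions were not mixed with the table's human build.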

Additional observations from a re-analysis of the deposited data

Results flagged for a closer look

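The effect of 1% O2 differed between the subclones for 7 members by the test of the difference itself. The log2 fold change of 1% over 20% O2 was lower in shISG20 than in shNTC cells, with differences of -1.519 for DNAJC11, -0.575 for MTX1, -0.508 for TOMM70, -0.444 for LONP1, -0.416 for TOMM40, -0.378 for HSPD1 and -0.316 for IMMT. No group held the 4 or more libraries that a check for single outlying libraries needs.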

How the results depend on the processing

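Of the calls, 18 of 26 for 1% O2 in shISG20 cells, 16 of 21 for 1% O2 in shNTC cells, 3 of 6 between subclones at 1% O2, 3 of 9 at 20% O2 and 2 of 7 in the difference of the oxygen effects held under every alternative run. The numbers of members that fell at 1% O2 stayed within 1.5 times of those given, at 25 to 26 in shISG20 cells and 20 to 22 in shNTC cells with any 1 library left out, and those that rose were 0 to 1 in shISG20 cells and 1 to 2 in shNTC cells. In shISG20 cells 4 rose with size factors, 3 with quantile normalization, 2 without the 50 most abundant and the mitochondrial rows, with voom on recovered reads or with rows that match a mouse gene alone, and 1 with at least 5 TPM, with the compared groups alone, with the replicate block or with pseudogene rows summed in. In shNTC cells 4 rose with size factors, quantile normalization, voom or without the 50 rows. The direction of LONP1 (0.061), CHCHD3 (0.006) and IMMT (0.166) in shISG20 cells reversed with size factors, and that of IMMT with quantile normalization (0.045). Of these 3, IMMT was called higher with size factors (adjusted p = 0.0182). The cause of these reversals was not tested.

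At 20% O2 the members higher in shISG20 cells numbered 11 among mouse-matched rows and 2 to 7 with 1 library left out, and the lower ones 1 with size factors, no filter or no variance trend and 1 to 2 with 1 library left out. At 1% O2 the higher ones numbered 0 with no filter, voom, the compared groups alone, the replicate block or summed rows, and 0 to 1 with 1 library left out, and the lower ones 3 with no trend or the compared groups alone and 3 to 6 with 1 library left out. For the difference of the oxygen effects the lower ones numbered 2 with no trend, 4 with the replicate block, 11 among mouse-matched rows and 2 to 8 with 1 library left out, and the higher ones 1 with voom or mouse-matched rows and 0 to 1 with 1 library left out. The cause of these shifts was not tested. Same-numbered libraries did not deviate together (18 correlations of -0.042 to 0.015, 0 above 0.1), so the numbers were not taken to pair samples. Depth limits the low genes, TIMM10 with 17 to 58 reads per group and TIMM22 with 26 to 78 among them.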
